A study of Mus musculus with 6 samples.

Results

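In progenitor cells sorted by Lgr5 from newborn mouse cochleae and left untreated, 335 regions carried a long stretch of H3K4me3 in both replicate libraries, and these broad domains are described here. A domain is a peak of untreated replicate 1 on chromosomes 1 to 19 or X that was at least 700 bp long and overlapped, by at least 1 bp, a peak of untreated replicate 2 that was also at least 700 bp long. They were 335 of the 15709 peaks of untreated replicate 1 on these chromosomes, and of 51214 peaks in the lists of all 4 libraries. Each domain was assigned to the protein-coding genes within 1 kb of it in mm10, which gave 334 of 21627 genes. The domains were thus chosen by their peak lengths in the 2 untreated lists, and those lengths are given as a description only.

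The study profiled H3K4me3 by chromatin immunoprecipitation and sequencing in cells from C57BL/6 mice aged between postnatal days 0 and 3. All groups carried the Lgr5-EGFP-creERT2 allele, which puts a green fluorescent protein under control of the Lgr5 locus. Cochleae were cultured in a medium with added growth factors, and the cells were then sorted by that fluorescence. The treated group received neomycin, an aminoglycoside antibiotic that kills hair cells, for 12 h, and the other group was left untreated, with 2 H3K4me3 libraries each. Input libraries, 1 per group, were not analysed here. Nothing in the labels says that the replicates came from separate cultures. Both untreated lists are named for H3K4me2, whereas every label states H3K4me3 and the same antibody; the mark is called H3K4me3 here after the labels, but for those lists it is to that extent uncertain.

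H3K4me3 is placed on the nucleosomes around transcription start sites by methyltransferase complexes of the Set1 and Kmt2 families, several of which bind DNA rich in unmethylated CpG. At most active genes it forms a narrow mark beside the start. Unusually long stretches of the mark have been described at genes that define a cell type and at genes under close transcriptional control. In the cochlea, Lgr5 marks supporting cells that can divide and form hair cells after birth, and Sox2, the Notch pathway and the Wnt pathway are known to control that ability.

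Promoters overlapped by the domains were dense in CpG, and those of 5 of their genes are printed to show this. Each line is the 250 bases before the outermost start that the RefSeq promoter table gives for the gene on GRCm38.p6, which is the assembly of mm10, read 5′ to 3′ on the strand of the gene. At Ep300, Dnmt3a, Ptch1 and Dyrk1a the annotated gene itself reaches farther upstream than that start. Capitals mark each CpG. All 250 bases lay inside the domain in each of the 5. Ep300, at chr15:81585964-81586213 on the plus strand, encodes a histone acetyltransferase, and its stretch holds 25 CpG. Dnmt3a, at chr12:3806730-3806979 on the plus strand, encodes a DNA methyltransferase, and its stretch holds 38. Ptch1, at chr13:63565736-63565985 on the minus strand, encodes the hedgehog receptor and holds 41. Wnt7a, at chr6:91411354-91411603 on the minus strand, encodes a Wnt ligand and holds 34. Dyrk1a, at chr16:94569956-94570205 on the plus strand, encodes a protein kinase and holds 43.
Ep300: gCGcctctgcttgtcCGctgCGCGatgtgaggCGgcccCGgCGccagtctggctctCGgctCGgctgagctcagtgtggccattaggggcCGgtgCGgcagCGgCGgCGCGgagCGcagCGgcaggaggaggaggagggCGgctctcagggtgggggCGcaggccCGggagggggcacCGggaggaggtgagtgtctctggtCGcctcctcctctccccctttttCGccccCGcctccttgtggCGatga
Dnmt3a: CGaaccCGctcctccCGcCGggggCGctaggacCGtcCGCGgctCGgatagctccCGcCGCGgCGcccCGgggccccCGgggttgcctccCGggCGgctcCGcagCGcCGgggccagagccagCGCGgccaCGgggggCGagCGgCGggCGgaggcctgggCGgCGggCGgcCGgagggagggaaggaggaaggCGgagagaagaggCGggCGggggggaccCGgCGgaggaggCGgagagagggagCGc
Ptch1: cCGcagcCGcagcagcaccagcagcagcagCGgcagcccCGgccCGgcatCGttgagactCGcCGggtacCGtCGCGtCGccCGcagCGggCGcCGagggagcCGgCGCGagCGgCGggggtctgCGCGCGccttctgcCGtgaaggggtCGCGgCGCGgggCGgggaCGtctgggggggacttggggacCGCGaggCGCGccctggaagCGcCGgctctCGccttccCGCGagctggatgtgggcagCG
Wnt7a: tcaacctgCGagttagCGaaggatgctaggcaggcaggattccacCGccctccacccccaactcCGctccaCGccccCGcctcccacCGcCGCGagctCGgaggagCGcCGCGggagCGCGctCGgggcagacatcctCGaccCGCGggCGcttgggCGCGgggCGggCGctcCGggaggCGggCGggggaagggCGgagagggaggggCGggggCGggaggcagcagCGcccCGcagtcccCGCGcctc
Dyrk1a: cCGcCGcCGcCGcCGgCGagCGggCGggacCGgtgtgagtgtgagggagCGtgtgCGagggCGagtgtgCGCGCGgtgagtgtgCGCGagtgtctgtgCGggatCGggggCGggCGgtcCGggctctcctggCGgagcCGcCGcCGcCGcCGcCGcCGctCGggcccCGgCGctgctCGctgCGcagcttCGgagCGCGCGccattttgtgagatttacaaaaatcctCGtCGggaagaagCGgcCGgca
In all 5 the CpG lie along the stretch, between 25 and 43 in 250 bases.

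The same held over all promoter windows that overlapped a domain. Of the 334 genes at domains 274 had a start in the RefSeq table, and genes whose domain lay beside the window are left out. Of 21044 RefSeq windows of 300 bases, from 250 before to 50 after a start, 148 windows of 137 genes overlapped a domain with a summit pileup under 40 (the reason for this limit is given with the lengths). Their median GC content was 74.5%, and the median window held 37 CpG, from 8 to 63. The ratio of observed to expected CpG, which corrects for base composition, had a median of 0.928. Windows at other peaks of untreated replicate 1 (4881) had a median GC content of 66.3%, 27 CpG and a ratio of 0.839. In the 13870 windows with no peak in any of the 4 lists the medians were 52%, 6 CpG and 0.325. A ratio of at least 0.6, a usual limit for a CpG island, was found in 95.3% of domain windows, 87.5% of windows at other peaks and 29.0% of windows without a peak. Domain windows were thus at the CpG-rich end of windows that were already CpG-rich. The difference was not tested.

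**Figure D1:**
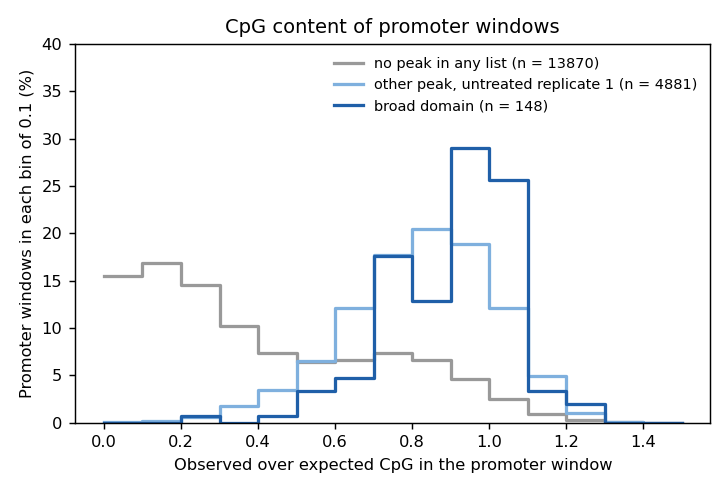
Distribution of the ratio of observed to expected CpG (x axis) in RefSeq promoter windows of 300 bases, as the percent of windows in each bin of 0.1 (y axis), for windows that overlap a broad domain (n = 148), another peak of untreated replicate 1 (n = 4881) or no peak of any library (n = 13870). Domain windows lie to the right, with a median of 0.928 against 0.839 and 0.325.

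Short sequence motifs were counted on both strands of the same windows. The GC box GGGCGG, known as a site of Sp and Klf factors, was present in 88.5% of domain windows, 74.1% of windows at other peaks and 46.7% of all windows. It contains a CpG itself. The CCAAT box, read as CCAAT, was present in 16.2% of domain windows against 30.7% at other peaks and 38.5% of all windows. The Ets site CCGGAAG, also with a CpG, was in 4.05% of domain windows, 19.4% at other peaks and 11.7% of all windows. A match to TATAAA was found in 4.05%, 3.95% and 12.7%, and to the Nrf1 motif TGCGCA in 14.9%, 14.1% and 9.74%. The Sox motif ACAATG was in 2.7% of domain windows, 5.31% at other peaks and 10.5% of all windows, and the Rbpj motif TGGGAA in 8.78%, 18.97% and 24.2%. These are counts of letters in a window and not of bound sites.

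The domains were broad only on the scale of these lists. Summit pileup, the height of stacked fragments at the highest point of a peak as given by the authors, split them into 310 domains between 12 and 26 and 25 domains between 43 and 374, with none between. In the 310, the length in untreated replicate 1 ran from 700 to 2070 bp with a median of 894.5 bp. The longest overlapping peak of untreated replicate 2 ran from 700 to 1804 bp with a median of 870 bp. At least 1000 bp in both libraries was reached by 35 of them, and at least 1500 bp by 1, at Ncoa2. Peaks of untreated replicate 2 covered 85.8% of the bases of the 310 domains. For scale, the median peak was 310 bp long in untreated replicate 1 and 339 bp in untreated replicate 2.

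Most long peaks did not qualify. Untreated replicate 1 had 1065 peaks of at least 700 bp and untreated replicate 2 had 749, and 730 of the 1065 had no long partner. The pairs nearest the limit show how small the difference can be. Among those just inside were Rnf216 (710 and 700 bp in untreated replicates 1 and 2), Vezf1 (906 and 700 bp), Kcnma1 (768 and 701 bp) and a region of chromosome 14 without a gene (701 and 768 bp). Just outside lay Camk2d (947 and 699 bp), Zmym2 (901 and 698 bp), Tmem115 (861 and 698 bp), Tanc2 (734 and 698 bp) and the peak between Pign and Relch (698 and 714 bp).

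**Figure D2:**
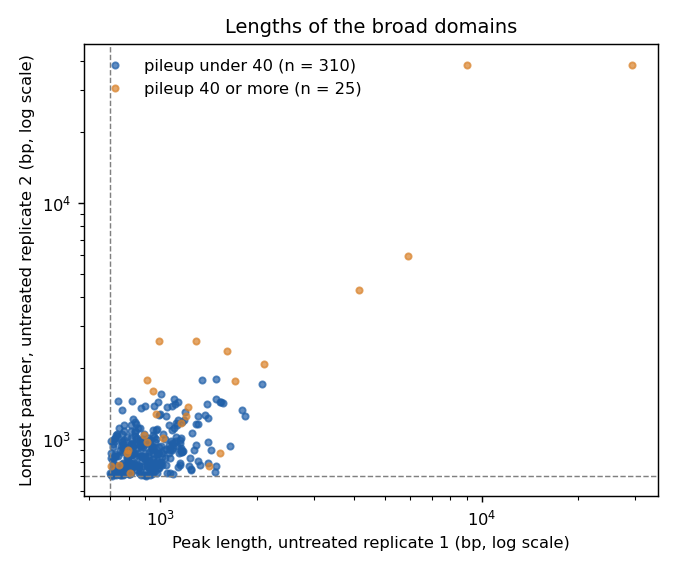
Length of each of the 335 domains in untreated replicate 1 (x axis, bp, log scale) against the longest overlapping peak of untreated replicate 2 (y axis, bp, log scale), with dashed lines at 700 bp. Blue points are the 310 domains with a summit pileup under 40 and orange points the 25 with 40 or more, the longest of which is 29425 bp.

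Many domains, like many other peaks, were not isolated. Another peak of untreated replicate 1 lay within 1 kb of 47.4% of the 310, against 44.3% of all its peaks with a pileup under 40. The share was 37.7% in peaks of at least 700 bp without a long partner and 37.3% in those of 500 to under 700 bp. It was 40.6% in those of 300 to under 500 bp and 49.2% in those under 300 bp. These shares were not tested. In 31 of the 335 the domain touched at least 2 peaks of untreated replicate 2. Sox21, L3mbtl3, Satb1, Sfi1 and Tmem267 had several domains each, 3 at Tmem267 and 2 at each of the others. Chromosome X had 0 domains among its 226 peaks of untreated replicate 1, of which 2 were at least 700 bp long.

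The 25 domains with a high pileup stood apart in other respects. No protein-coding gene lay within 1 kb of 17 of them, against 10 of the 310. Their median fold enrichment over the local background was 3.56, against 9.66 in the 310. They held the longest domain of all, 29425 bp at chr9:3008974-3038398, whose partner in untreated replicate 2 was 38584 bp long and which held 84 peaks of neomycin replicate 1 and 55 of neomycin replicate 2. Others were 8996 bp beside it on chromosome 9, 5907 bp on chromosome 17 and 4156 bp on chromosome 14. Tmem267, Sfi1, Smo, Duxf3 and LOC100504180 had domains of this kind. Values over all 335 are shifted by these 25, so the 310 are used below for positions and neomycin peaks unless 335 is stated. Gene counts are over all 335, which have 334 genes, and the 310 have 329 of them.

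Nearly all domains lay at genes. Of the 310, 300 had a protein-coding gene within 1 kb (96.8%), against 92.7% of all peaks with a pileup under 40. An annotated start lay inside 95 of them (30.6%), while 132 (42.6%) began downstream of the nearest start within 1 kb. Only 7 (2.26%) lay wholly upstream within 1 kb, and 18 were farther away. The other 48 had no gene with a start in the RefSeq table used. Among all peaks with a pileup under 40, 12.2% held a start, 44.7% began downstream of one within 1 kb and 8.78% lay upstream. A longer peak can hold a start more easily. Untreated replicate 1 also had 729 peaks of this pileup that were at least 700 bp long without a long partner. Of these, 97.9% were at a gene, 30.5% held a start, 41.6% began downstream and 1.78% lay upstream. The positions were thus not particular to the domains. Of the 18 far domains, one in Nfia, a nuclear factor I gene, was 196199 bp downstream of the nearest given start. Another in Pgr, the progesterone receptor gene, was 1335 bp downstream.

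Transcription factors of the cell lineage were few but included the domains at Sox21 and Sox2. Of 43 genes of supporting and progenitor cells, 3 had a domain (6.98%), Sox21, Sox2 and Lmo4, against 1.54% of all 21627 protein-coding genes. Of genes with any peak of untreated replicate 1 within 1 kb, 2.99% had a domain, and of the 36 such genes of the list 8.33% did. Sox21, an HMG-box factor of supporting cells, had the longest domain of the list, at chr14:118235511-118236906, with 1396 bp in untreated replicate 1. It touched 2 peaks of untreated replicate 2, the longer of 1409 bp, and began 124 bp downstream of the start. Inside it, neomycin replicate 1 had peaks of 62 and 104 bp and neomycin replicate 2 had peaks of 157 and 110 bp. The second domain of Sox21, at chr14:118234306-118235420, measured 1115 bp, touched the same peak of untreated replicate 2, and held a peak of 197 bp in neomycin replicate 1 and peaks of 235 and 269 bp in neomycin replicate 2.

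Sox2, the HMG-box factor that specifies the prosensory region, had a domain of 1108 and 1109 bp in untreated replicates 1 and 2, at chr3:34650237-34651344, which began 242 bp downstream of its start. It held a peak of 154 bp of neomycin replicate 2 and no summit of neomycin replicate 1, which had 1 peak of 48 bp at the gene. The neomycin libraries thus differed inside the domain, though each had a peak at Sox2. Lmo4, a LIM-only cofactor of transcription, had a domain over its start at chr3:144201731-144202637, of 907 and 779 bp. A peak of 135 bp of neomycin replicate 1 fell inside it, and no summit of neomycin replicate 2 did. Each of the 3 genes therefore had a short neomycin peak inside a domain in at least 1 library, and Sox21 in both.

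Other identity genes reached the length in untreated replicate 1 alone. In that library 12 of the 43 had a peak of at least 700 bp, and in untreated replicate 2 only the 3 members had one. Of all protein-coding genes, 5.15% and 3.6% had such a peak within 1 kb in untreated replicates 1 and 2. Among them, the longest peaks in untreated replicates 1 and 2 were 1017 and 488 bp at Pax2, 841 and 540 bp at Notch1, 828 and 265 bp at Hes5, 796 and 596 bp at Jag1, and 775 and 412 bp at Gata3. Lgr5, the gene that marks these cells, had longest peaks of 502 and 311 bp, Sox9 of 507 and 621 bp, Prox1 of 560 and 607 bp, and Fgfr3 of 236 and 304 bp. None of the 42 hair cell genes had a peak of 700 bp in any library, and 20 of them had any peak of untreated replicate 1. At the shares of all genes a list of this size would hold few, so the count of 0 does not set the list apart. Atoh1, which initiates hair cell differentiation, reached 394 and 393 bp, and Tbx2 679 and 544 bp.

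Signalling pathways contributed a few domains each. In the Notch list 2 of 36 genes had one (5.56%, or 6.06% of the 33 with any peak of untreated replicate 1, against 1.54% and 2.99% of all genes). They were Adam10, the protease that cleaves Notch receptors, and Dtx4, a Deltex ubiquitin ligase. Adam10 had 915 and 850 bp in untreated replicates 1 and 2, a peak of 48 bp of neomycin replicate 1 inside, and no summit of neomycin replicate 2. Dtx4 had 833 and 1078 bp, peaks of 156 and 101 bp of neomycin replicate 1, and again no summit of neomycin replicate 2. Receptors, ligands and Hes or Hey effectors of the pathway were not among the domains.

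In the Wnt list 3 of 59 genes had a domain (5.08%), or 5.77% of the 52 with any peak of untreated replicate 1. The shares of all genes were 1.54% and 2.99%. Wnt7a, the ligand whose promoter is printed above, had 774 and 992 bp at chr6:91410966-91411739. It held a peak of 209 bp of neomycin replicate 1 and peaks of 268 and 148 bp of neomycin replicate 2. Fzd8, a Wnt receptor, had 1310 and 810 bp and held 1 peak of 95 bp of neomycin replicate 1. Axin2, a scaffold and feedback target of the pathway, had 815 and 952 bp and held peaks of 157 and 174 bp in neomycin replicates 1 and 2. Its domain began 996 bp downstream of the start.

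In the list of FGF, BMP and hedgehog genes 3 of 60 had a domain (5%), against 1.54% of all genes. Of those with any peak of untreated replicate 1, 5.56% of 54 had one, against 2.99%. With only pileups under 40 it was 2 of 60 (3.33%), against 1.52% of all genes. Among the 3 were the hedgehog receptor Ptch1 and its signalling partner Smo. The Ptch1 domain, at chr13:63564950-63566184, measured 1235 and 828 bp, with peaks of 48 and 79 bp of neomycin replicate 1 and of 151, 110 and 170 bp of neomycin replicate 2 inside. The Smo domain of 790 and 871 bp was of another kind, with a pileup of 73, and lay 12299 bp downstream of the start. Smad7, an inhibitory Smad of the BMP and TGF-beta pathways, had 708 and 716 bp, with peaks of 48 and 422 bp in neomycin replicates 1 and 2.

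Regulators of chromatin carried domains at the highest share of the 20 gene lists. Of 117 such genes 16 had a domain (13.7%), or 14.4% of the 111 with any peak of untreated replicate 1, against 1.54% and 2.99% of all genes. Subunits of the BAF and PBAF nucleosome remodelling complexes were Arid2 (1800 and 1330 bp in untreated replicates 1 and 2), Arid1a (1121 and 1165 bp) and Arid1b (971 and 1090 bp). Each of these 3 held a peak of neomycin replicate 1, of 92, 48 and 136 bp, and of neomycin replicate 2, which had 138 bp at Arid2, 302 and 317 bp at Arid1a and 114 bp at Arid1b. Other remodellers were Chd7 (1104 and 959 bp), Chd1 (761 and 878 bp) and Smarca5 (930 and 729 bp). Chd7 held 2 peaks of neomycin replicate 2 and none of neomycin replicate 1, while Chd1 and Smarca5 held 1 of neomycin replicate 1 and none of neomycin replicate 2.

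Enzymes and readers of histone and DNA marks made up the rest. Ep300 had 1406 and 1225 bp at chr15:81585468-81586873, with 1 peak inside in each neomycin library, of 93 and 151 bp. Dnmt3a had 1313 and 1159 bp at chr12:3806521-3807833, with none of neomycin replicate 1 and peaks of 131 and 110 bp of neomycin replicate 2. The methyltransferase genes were Kmt2c of the H3K4 family (1154 and 962 bp), Ehmt2 of the H3K9 family (979 and 808 bp), and Setd2 (812 and 716 bp) and Nsd2 (813 and 795 bp) of the H3K36 family. Brd2 (724 and 1014 bp) and Brd3 (882 and 1003 bp) encode readers of acetylated histones, Ring1 (874 and 940 bp) a Polycomb ubiquitin ligase, and Kdm2b (806 and 726 bp) a demethylase that binds CpG islands. Within this group the neomycin peaks were uneven. Brd3 held 4 of neomycin replicate 1 and 0 of neomycin replicate 2, Setd2 held 2 and 1, and Nsd2 and Brd2 held none of either.

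**Figure D3:**
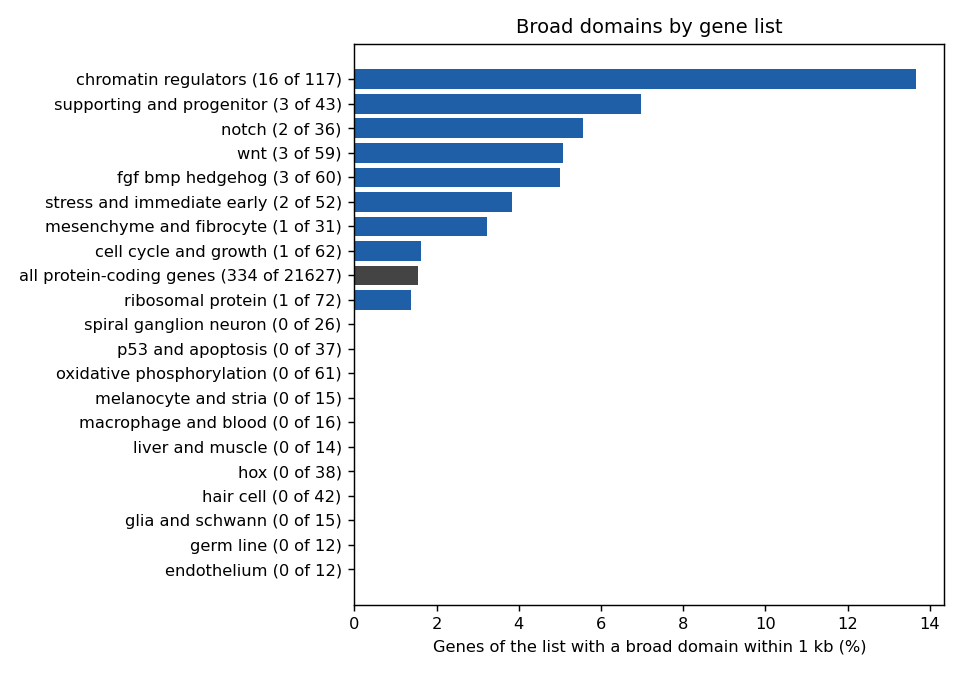
Percent of the genes of each list with a broad domain within 1 kb (x axis), with the number of genes with a domain and in the list beside each name. The dark bar is the 1.54% of all protein-coding genes, and chromatin regulators have the longest bar at 13.7%.

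Domains at the remaining lists were few or absent. E2f3, a cell cycle transcription factor, had the 1 domain among 62 cell cycle and growth genes, of 814 and 1008 bp. Keap1, which holds the oxidative stress factor Nrf2 in check, and Btg1, an antiproliferative gene, had the 2 among 52 stress and immediate early genes, with 836 and 950 bp and 702 and 976 bp. That was 3.85% of the list, or 4.35% of its 46 genes with any peak of untreated replicate 1, against 1.54% and 2.99% of all genes. Sox11, found in embryonic mesenchyme and neurons, had 924 and 752 bp and was the 1 of 31 genes of mesenchyme and fibrocytes. A domain shared by Rdh10 and Rpl7 gave the 1 of 72 ribosomal protein genes. No domain was found at the 37 genes of p53 and apoptosis, the 61 of oxidative phosphorylation or the 38 Hox genes. The same was true of lists that mark other cells, which held 26 genes of spiral ganglion neurons, 15 of glia, 15 of melanocytes and stria, 12 of endothelium, 16 of macrophages and blood, 12 of the germ line and 14 of liver and muscle. Of those 7 lists, 16, 8, 8, 2, 2, 0 and 1 genes had any peak of untreated replicate 1. With a domain at 1.54% of all genes, lists of these sizes would hold under 1, so a count of 0 is near the background.

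Genes of transcription factor families, taken by the form of the gene name, were 28 of the 334 genes at domains, or 8.38% (95% Wilson interval 5.86 to 11.8). They were 6.43% (5.99 to 6.90) of the 11156 genes with any peak of untreated replicate 1 and 4.85% of all protein-coding genes. The interval at domains, which covers counting error only, includes the share at any peak. Of the 1114 genes within 1 kb of any peak of at least 700 bp of untreated replicate 1, 8.62% were of these families. The share was thus not particular to the domains. Apart from Sox21 and Sox2, the longest by the shorter of the 2 untreated lengths were at Satb1, a chromatin organiser (1044 and 1249 bp in untreated replicates 1 and 2, with a second domain of 1155 and 793 bp), and Sall3, a zinc finger factor (998 and 1282 bp). Sox4, a further HMG-box factor, had 1650 and 935 bp and held peaks of 67 and 88 bp of neomycin replicate 1 and of 136 and 247 bp of neomycin replicate 2. Prdm16 (1043 and 909 bp), Irx5 (1145 and 873 bp), Klf13 (870 and 928 bp) and Zbtb7a (959 and 1015 bp) also had one.

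Among helix-loop-helix factors, Tcf12, Id4 and Clock had a domain, while Id1, Id2 and Id3 did not. The longest peaks in untreated replicates 1 and 2 were 754 and 544 bp at Id1, 435 and 285 bp at Id2, and 543 and 373 bp at Id3. Tcf12, an E protein that pairs with proneural factors, had 810 and 1145 bp over its start, with a peak of 144 bp of neomycin replicate 1 and of 232 bp of neomycin replicate 2. Id4, an Id protein that binds E proteins and keeps them from DNA, had 983 and 869 bp at chr13:48261300-48262282. It held 3 peaks of each neomycin library, of 184, 74 and 105 bp and of 194, 211 and 240 bp. Clock, a helix-loop-helix factor of the circadian oscillator, had 744 and 1118 bp over its start and no neomycin summit inside.

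**Figure D4:**
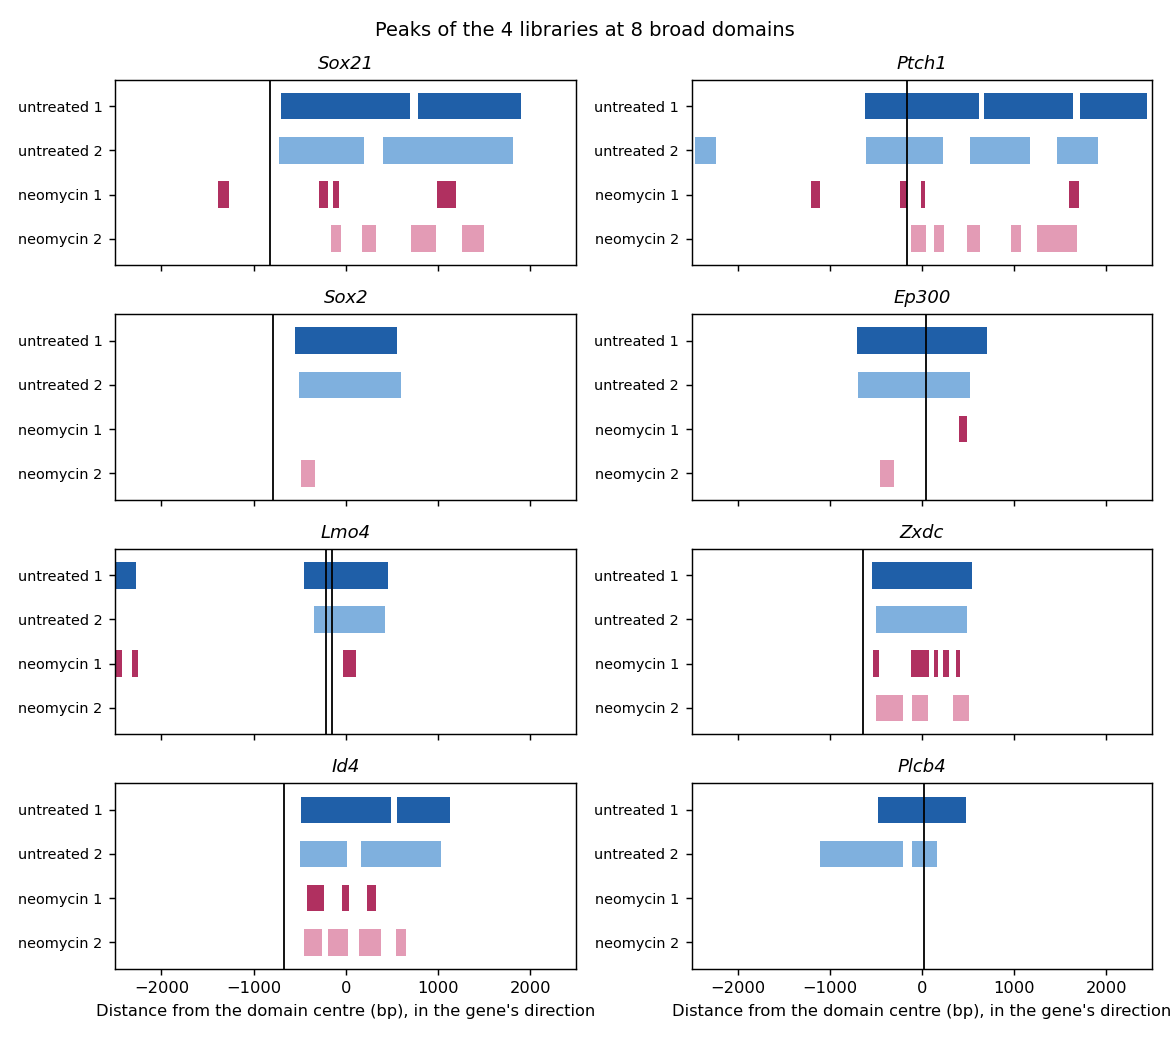
Peaks of the 4 libraries (rows) at 8 domains, by distance in bp from the centre of the domain (x axis) in the direction of the gene, with annotated RefSeq starts of the named gene as black lines. By the rule, each domain has an untreated peak of 700 bp or more in both replicates. The neomycin peaks inside range from 5 and 3 of neomycin replicates 1 and 2 at Zxdc to none at Plcb4. They are short, as are the whole neomycin lists, with medians of 70 and 141 bp. The contrast in length cannot be read as an effect of neomycin.

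Ranked by the shorter of the 2 untreated lengths, the longest domain with a pileup under 40 was at Ncoa2, which encodes a coactivator of nuclear receptors. It had 2070 and 1716 bp in untreated replicates 1 and 2, peaks of 133 and 48 bp of neomycin replicate 1, and peaks of 128, 111 and 147 bp of neomycin replicate 2. Dyrk1a followed among genes, with 1492 and 1478 bp at chr16:94569766-94571257, 1 peak of 48 bp of neomycin replicate 1 and peaks of 201 and 110 bp of neomycin replicate 2. Next came Ubtf, which encodes a factor of ribosomal RNA transcription (1534 and 1441 bp), Bend3, a BEN domain protein (1548 and 1438 bp), Pde3b, a cyclic nucleotide phosphodiesterase (1570 and 1420 bp), and Ing1, a PHD finger reader of H3K4me3 (1348 and 1770 bp). Each of these 4 held between 1 and 4 peaks of each neomycin library. Cpeb2, Neo1, Paip1, Chst15, Pds5a, Fgf12, Senp6, Wnk2 and Crim1 had domains of at least 1000 bp in both untreated libraries.

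Most domains held neomycin peaks, at about the density of other untreated peaks. A peak was counted as inside when its summit lay within the domain. Over the 335 domains, 253 (75.5%) held at least 1 summit of neomycin replicate 1 and 230 (68.7%) at least 1 of neomycin replicate 2, against 36.7% and 35.8% of all 15709 peaks of untreated replicate 1. Both lists had a summit in 177 (52.8%), against 18.8% of all peaks, and neither had one in 29 (8.66%), against 46.4%. For the 310 the shares were 74.5% (95% Wilson interval 69.4 to 79.0), 66.8% (61.4 to 71.8), 50.3% (44.8 to 55.9) and 9.03% (6.32 to 12.7). A long region can hold more summits by its length. Per kb of domain there were 1.25 summits of neomycin replicate 1 and 1.01 of neomycin replicate 2. The same densities were 1.24 and 1.09 in untreated peaks of 500 to under 700 bp, 1.27 and 1.11 in those of 300 to under 500 bp, 1.09 and 1.08 in those under 300 bp, and 1.20 and 0.983 in those of at least 700 bp without a long partner. The domains thus lay within the range of the other 4 classes for both neomycin libraries.

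By number, neomycin replicate 1 had 0, 1, 2, 3, 4 and 5 summits in 79, 130, 75, 20, 5 and 1 of the 310 domains, a mean of 1.18. Neomycin replicate 2 had 0 to 3 summits, in that order, in 103, 125, 75 and 7, a mean of 0.955. Over all 335 the means were 1.64 and 1.24. The most were at Zxdc, a zinc finger gene, with 5 and 3, and at Rasa1, a Ras GTPase-activating protein, with 4 and 3. Zxdc had 1081 and 984 bp in the untreated libraries, with peaks of 59, 190, 49, 67 and 48 bp of neomycin replicate 1 and of 298, 172 and 178 bp of neomycin replicate 2.

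**Figure D5:**
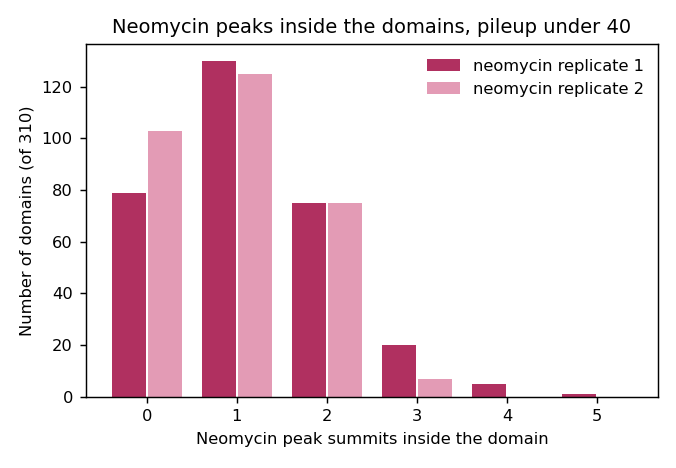
Number of the 310 domains with a pileup under 40 (y axis) that hold 0 to 5 peak summits of a neomycin library (x axis), for neomycin replicate 1 (dark) and neomycin replicate 2 (light). A single summit is the most frequent in both, in 130 and 125 domains.

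The neomycin peaks inside the domains were short, as were all peaks of those lists. The 365 peaks of neomycin replicate 1 with a summit in the 310 domains had a median of 83 bp, against 70 bp in its list, while the 296 of neomycin replicate 2 a median of 155.5 bp, against 140.5 bp. They covered 11.7% and 18.4% of the bases of the domains, against 10.6% and 17.95% of the bases of all peaks of untreated replicate 1 with a pileup under 40. The shortest peak was 48 bp in neomycin replicate 1, 110 bp in neomycin replicate 2, 187 bp in untreated replicate 1 and 234 bp in untreated replicate 2. No peak of neomycin replicate 1 and 9 of neomycin replicate 2 reached 700 bp anywhere. The floor and the whole range of lengths thus differed by library, and a difference in length at the domains cannot be told apart from this difference between the lists. Nor can it be read as an effect of neomycin, since long untreated peaks chose the domains and 2 libraries against 2 allow no permutation p under 0.333.

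The longest peaks of each neomycin list lay in a larger share of the domains than of other untreated peaks. The longest 10% of peaks started at 138 bp in neomycin replicate 1 and at 265 bp in neomycin replicate 2. A peak of that class lay in 58 of the 310 domains (18.7%) for neomycin replicate 1, against 5.6% of all 15577 peaks of untreated replicate 1 with a pileup under 40 and 8.97% of the 1628 that were 500 to under 700 bp long and met a peak of untreated replicate 2. For neomycin replicate 2 it lay in 41 (13.2%), against 4.48% and 10.3%. Both libraries had such a peak in 6 of the 310 domains (1.94%), against 0.565% of the 15577 and 1.47% of the 1628 peaks. These 6 domains were at Pde3b, Zxdc, Wnt7a, the engulfment gene Elmo1, the second domain of Sox21 and a region of chromosome 12 without a gene. Longer domains offer more room, and these shares are per region and not per kb. They therefore do not show that such peaks were denser in the domains, and they were not tested.

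A neomycin peak of at least 700 bp lay in 4 of the 335 domains, all from neomycin replicate 2. In 3 the pileup was 40 or more and no gene lay within 1 kb. The other was at Rock2, a kinase of the actin cytoskeleton, at chr12:16894869-16895676. Its domain measured 808 and 711 bp in untreated replicates 1 and 2. The peak of neomycin replicate 2 was 723 bp long and covered 89.5% of it, while neomycin replicate 1 had no summit inside.

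The 28 domains with a pileup under 40 and no neomycin summit varied in what lay at or beside them. Both neomycin lists had a peak within 1 kb of 5 of them, 1 list had one at 10, and neither at 13. Some of these peaks overlapped the domain with their summit outside it. This was so for neomycin replicate 2 at Marchf9, Kcna3 and Usp1, and for neomycin replicate 1 at Sik1. Tle3, a corepressor of the Groucho family, had 851 and 1115 bp in untreated replicates 1 and 2 and peaks 0.033 and 0.184 kb away in neomycin replicates 1 and 2. Farther away were those of Plcb4, a phospholipase C (949 and 902 bp), at 728 and 1015 kb, and of Purb, a single-strand DNA binding protein (897 and 1379 bp), at 58.5 and 71.4 kb. Kcnd2, a potassium channel gene (976 and 861 bp over its start), and Mta1, of the NuRD complex (875 and 947 bp), were likewise without a neomycin peak within 1 kb. The longest of the 28, of 1125 and 1151 bp between Pkp4 and Ccdc148, had a peak of neomycin replicate 1 at 0.291 kb.

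The count of domains without a neomycin summit depended on how weak a peak was allowed. The median -log10 q of the peaks inside domains was 4.25 in neomycin replicate 1 and 4.88 in neomycin replicate 2, while the domains had a median of 13.0 in untreated replicate 1. Over the whole neomycin lists with a pileup under 40 the medians were 4.25 and 5.77. A limit of 10 thus removes most peaks of those lists, inside domains or not. With a -log10 q of at least 10 required in all 4 lists, 187 domains remained and 95.2% of them had no neomycin summit, against 8.66% of the 335. Without that limit 46.4% of all peaks of untreated replicate 1 had none, and their share under it was not computed. With neomycin replicate 1 or 2 alone, 24.5% and 31.3% of the 335 had none. Of all peaks of untreated replicate 1, only 36.7% and 35.8% held a summit of neomycin replicates 1 and 2.

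Summits were spread along the domains in every library. In the 234 domains with a pileup under 40 and an annotated start inside them or within 1 kb, positions were scaled from 0 at the upstream edge to 1 at the downstream edge. The median position was 0.434 in untreated replicate 1, 0.454 in untreated replicate 2, 0.542 in neomycin replicate 1 and 0.492 in neomycin replicate 2. Of 3 equal parts of the domain, the downstream part held 23.1%, 27.5%, 33.9% and 31.7% of the summits in the same order. Both neomycin medians were thus the higher ones, and the difference was not tested.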

How the data were processed

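The authors deposited 1 peak list per H3K4me3 library, with positions in mm10. CASAVA 1.4, Bowtie2, MACS2 and deepTools were used, per the submitters' processing notes; settings are not given in the sources. A list records for every peak its length, its summit and a pileup signal, per the file headers. It also holds a fold enrichment, a ratio to local background, which the authors' caller computed. The deposited significance columns are −log10 of the p-value and of the q-value. Read totals are absent, so depth is unknown.

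Peaks on chromosomes 1 to 19 and X were used. Domains, summits inside them, covered bases and genes within 1 kb (GRCm38.p6 RefSeq table) were counted with Python 3.11.15, pandas 2.3.3, numpy 2.4.6 and scipy 1.17.1, and figures drawn with matplotlib 3.10.9. The counting was checked on simulated data. Wilson intervals are at 95% and cover counting error only, since regions of 1 library are not replicates. Starts came from a RefSeq promoter table with 17273 of 21627 protein-coding genes and 274 of the 334 genes at domains. Named were the longest domains, those with most or no neomycin peaks, up to 6 per gene list, up to 25 transcription factor genes and those nearest the length limit. Further chromatin regulators, Rock2, Elmo1, Nfia and Pgr were named after their values were seen. The domains, gene lists and this rule were chosen with earlier results of these data known. No test was made. Some results that this rule would name are not reported here.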

Additional observations from a re-analysis of the deposited data

How the results depend on the processing

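Of 85 values under 14 alternatives, 47 stayed within set limits and 38 moved. Counts of domains and genes were held to a fixed factor of the main value. Neomycin means and covered bases were held to the standard deviation between the neomycin libraries. Shares were held to their Wilson interval, and the CpG ratio to an interval of its median taken from ranks. Minimum lengths of 500 and 1000 bp gave 1299 and 47 domains and 1338 and 37 genes, with 16.9% and 2.13% free of neomycin summits, 96.0% and 78.7% at a gene, means of 1.06 and 4.49 summits of neomycin replicate 1 and of 0.865 and 3.30 of neomycin replicate 2; at 1000 bp they covered 26.2% and 41.2% of bases. A -log10 q of at least 10 gave 187 domains, 176 genes, 95.2% without a summit, means of 0.0481 and 0.128, and 0.544% and 3.77% of bases covered. Leaving out 1 untreated library gave 749 to 1065 domains, 779 to 1114 genes, 13.8% to 14.7% without a summit, 94.1% to 96.1% at a gene, and means of 1.22 to 1.24 and 0.964 to 0.967. Leaving out 1 neomycin library gave 24.5% to 31.3% without a summit, and counting only neomycin peaks wholly inside gave 12.5%. With only pileups under 40, chosen after seeing the data, means were 1.18 and 0.955, neomycin replicate 2 covered 18.4% and 96.8% were at a gene. The share of transcription factor genes and the CpG ratio did not move under the alternatives run for them. No paired analysis was made, because no test was run. The labels do not say whether neomycin and untreated replicates belong in pairs. The unknown depth limits what a missing or short neomycin peak can show.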
